A study of Mus musculus with 4 samples.

Results

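T helper cells can lose the signal from IL-2 through STAT5 either because STAT5 is gone or because IL-2 is taken away, and the comparison here sets one of these states against the other in cells whose Stat3 gene is intact. It takes 2 of the 4 arrays of the series, chosen by their titles: STAT5-deficient T cells cultured with IL-2, and STAT3 wild-type T cells cultured with an antibody that neutralises IL-2. Each gene is given by the probe set that names it alone and has the highest mean over the 4 arrays. Of 18193 genes with such a probe set, 12439 had a level above 6.20, the median of all values, on at least 1 array and were compared. That median is called the background level below, without any detection call behind it.

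Naive CD4+ T cells (CD44-CD62L+) from spleen and lymph nodes were the starting cells, and the mice were of strain C57BL/6J with the OT2 T cell receptor transgene. The STAT5-deficient cells were CD4-Cre stat5 fl/fl OT2, and the STAT3 wild-type cells were stat3 fl/fl OT2 with no Cre in the label. All cultures were stimulated through CD3 and CD28 for 72 h with IL-6 at 20 ng/ml, TGF-β at 2 ng/ml and an antibody against IL-4, a setting that favours Th17 cells. The STAT5-deficient cells also received IL-2 at 100 IU/ml, and the STAT3 wild-type cells anti-IL-2 at 10 µg/ml. The other 2 arrays, shown for reference, are STAT5 wild-type cells (stat5 fl/fl OT2, with IL-2) and STAT3-deficient cells (CD4-Cre stat3 fl/fl OT2, with anti-IL-2). The genotype label of both Cre-carrying samples ends in the words for wild type, against the title. Because Cre runs from the Cd4 promoter, STAT5 is lost during thymic development and not only in culture. The 2 arrays compared differ in the floxed line, the Cre transgene, STAT5 and IL-2 at the same time, and these cannot be told apart. There was 1 array in each group, a single culture, so no difference has a replicate check and precision is limited by that number. In bulk RNA such as this, fewer cells of a type and less RNA per cell cannot be told apart.

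IL-2 binds a receptor whose kinases, Jak1 and Jak3, phosphorylate STAT5, which then induces genes such as Cish, Socs2 and Foxp3. The same receptor also feeds the MAP kinase pathway and the PI3K, Akt and mTOR pathway, which drives amino acid uptake and restrains the FOXO transcription factors. In Th17 cultures STAT5 is known for restraining Il17a and for supporting Foxp3, the regulator of regulatory T cells.

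Levels are the deposited values, read as log2, so that a difference of 1 is 2-fold. Differences are given as STAT5-deficient minus STAT3 wild type, and a gene is called higher or lower at 2-fold or more. Of all genes compared, 777 (6.25%) were called, with 418 higher (3.36%) and 359 lower (2.89%) in STAT5-deficient cells. The counts of each gene list below are to be read beside these shares. The median gene differed by 0.11, and 76.2% of genes lay within 1.5-fold. Only 6 of the higher and 12 of the lower genes passed 8-fold. The split depends on the scaling: lower genes made up 46.2% of calls as deposited, 28.2% with arrays centred on their medians, 55.5% after quantile normalisation and 57.4% after loess centring. The median gene then stood at 0.25, 0.01 and -0.0015, so small shared shifts of a gene group have no fixed sign.

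**Figure D1:**
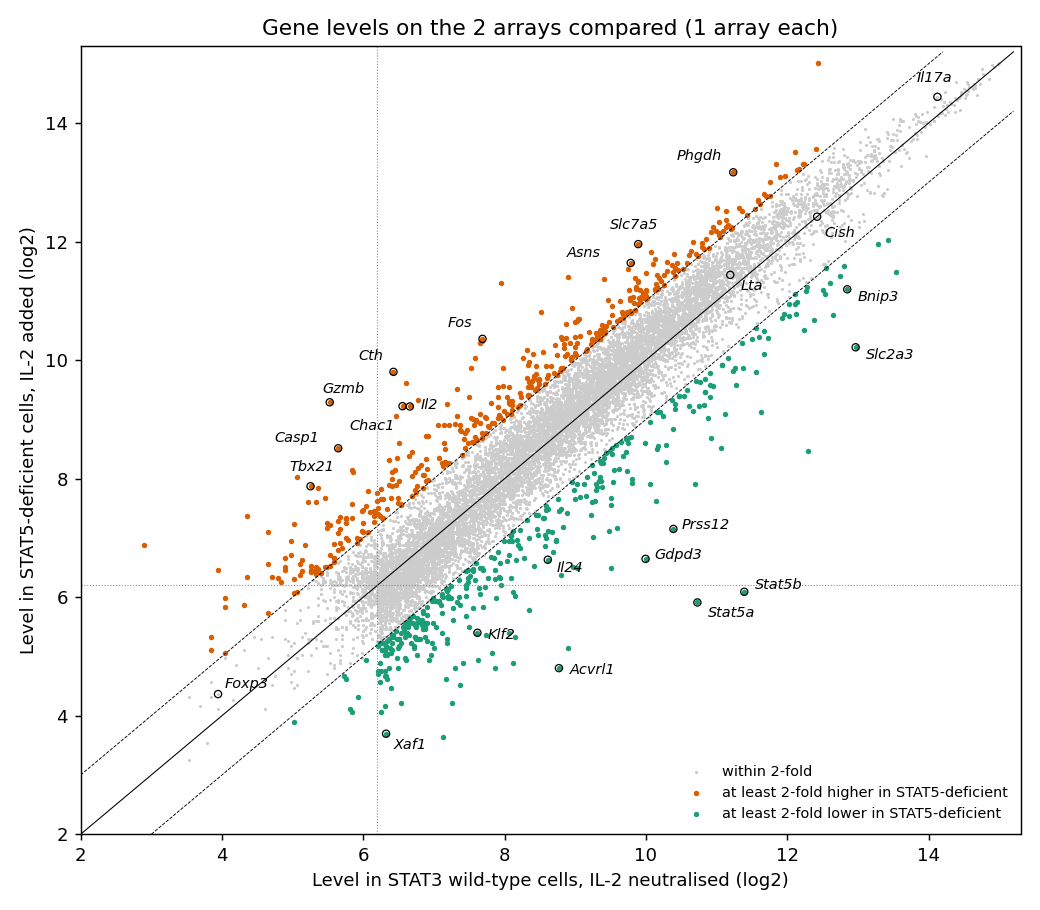
Level of each of the 12439 genes compared in STAT3 wild-type cells with IL-2 neutralised (x axis, log2) and in STAT5-deficient cells with IL-2 (y axis, log2), 1 array each. Dashed lines mark 2-fold and dotted lines the background level of 6.20; Stat5a and Stat5b lie far below the diagonal, Gzmb, Cth and Chac1 far above it, and Cish on it.

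The targeted genes followed the titles. Stat5b went from 11.39 where IL-2 was neutralised to 6.09 without STAT5, and Stat5a from 10.73 to 5.91, under the background level. A second Stat5b probe set stayed above it, at 6.87 against 9.45, a smaller difference of -2.58. The differences of -5.30 for the brighter Stat5b probe set and -4.82 for Stat5a were the largest decreases among the genes compared. Stat3 was level at 12.87 and 12.80, against 9.93 in STAT3-deficient cells. All 11 measured genes of a CD4 T cell identity list lay above background on both arrays and within 2-fold, Cd4 at 11.46 and 10.88. Of markers of other cell types, 3 of 7 B cell genes with a probe set lay above background in STAT5-deficient cells and 2 in STAT3 wild-type cells. The counts were 2 and 2 of 7 for macrophage and monocyte genes, 3 and 2 of 8 for granulocyte genes, and 6 and 4 of 8 for dendritic cell genes. They were 2 and 2 of 4 for NK cells, and 1 and 1 of 5 for erythroid cells and platelets. Both CD8 genes and 4 and 3 of 4 genes of gamma delta and innate-like T cells lay above it, as did 2 and 3 of 7 stromal genes. The background level is the median, so 50% of all values lie above it, and 68.4% of all genes did on at least 1 array. These counts are therefore not a detection of any cell type. Among the markers that passed the filter only Trgv4, a gamma delta receptor segment, was called (5.76 in STAT3 wild-type and 7.32 in STAT5-deficient cells), and the part of such cells in the results was not tested. Xist stood at 13.42 and 13.21 and the Y-linked genes measured lay under background on every array, a pattern of female cells in all 4 cultures.

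Among 19 measured genes that IL-2 is known to induce through STAT5, 1 was higher and 1 lower, with a median of -0.16 against 0.11 over all genes. With 6.25% of all genes called, this count does not set the list apart from other genes. Cish, an inhibitor of cytokine receptors and a classical STAT5 target, stood at 12.42 in STAT3 wild-type and 12.42 in STAT5-deficient cells. Its level in STAT5 wild-type cells with IL-2, 12.77, was only slightly above these, so this gene varied little across the cultures. Il2ra, the high-affinity receptor chain, was likewise level, at 12.67 and 12.50.

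Other members of that list were lower in both states than in STAT5 wild-type cells with IL-2. Lta, which encodes lymphotoxin, stood at 11.19 without IL-2, 11.44 without STAT5 and 13.96 in STAT5 wild-type cells, with 12.38 in STAT3-deficient cells. Foxp3 was under the background level in both, at 3.94 and 4.36, against 7.73 in STAT5 wild-type and 3.32 in STAT3-deficient cells. Socs2, a feedback inhibitor, was at 9.51 and 8.93, against 12.05. STAT3-deficient cells, although IL-2 was neutralised in them too, stood at 11.37, so a low Socs2 was not shared by every culture with anti-IL-2. The 5 probe sets of Socs2 past the filter differed by between -1.76 and -0.58, all lower in STAT5-deficient cells. Lif, a cytokine gene, stood at 10.07 and 9.98, against 10.99. The survival gene Bcl2 was somewhat lower without STAT5 than without IL-2, at 9.21 and 9.88, against 10.82.

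Promoter stretches of Lta and Foxp3, members of that list more than 4-fold below STAT5 wild-type cells in both states, are shown because each holds the STAT recognition pattern TTCNNNGAA before its start. The pattern reads the same on both strands, and capitals mark it. Sequences are from RefSeq, build GRCm38.p6, 5′ to 3′ on the gene's strand. The Lta stretch lies on the minus strand at chr17:35205352-35205543, with matches beginning 152 and 16 bases before the start. The Foxp3 stretch lies on the plus strand at chrX:7580304-7580392, with its match 139 bases before the start.
Lta: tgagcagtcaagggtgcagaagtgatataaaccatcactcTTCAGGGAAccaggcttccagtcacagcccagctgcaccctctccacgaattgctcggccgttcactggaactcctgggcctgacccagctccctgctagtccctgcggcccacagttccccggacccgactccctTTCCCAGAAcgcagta
Foxp3: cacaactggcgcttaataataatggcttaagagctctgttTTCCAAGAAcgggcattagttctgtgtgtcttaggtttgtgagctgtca
In windows from 250 bases before to 50 after a start, 4 of the 14 genes of the list with a sequence held the pattern, against 8.17% of all genes compared that have one. Among genes called higher it was 9.47% and among genes called lower 7.07%. The 4 holders in the list were Lta, Foxp3, Cish, which varied little across the cultures, and Gzmb, which was higher without STAT5. Socs2, also more than 4-fold below STAT5 wild-type cells in both states, was not among the holders. A match is a description of the letters and not a binding site.

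The members of the list that parted were Gzmb and Pim2. Gzmb, the granule protease granzyme B, stood at 5.52 in STAT3 wild-type and 9.29 in STAT5-deficient cells, with 7.76 in STAT5 wild-type and 8.25 in STAT3-deficient cells. That difference of 3.76 is among the widest of all genes, although its lower side is under background and its size uncertain. Pim2, a survival kinase, was lowest without STAT5, at 9.56 against 10.95, with 10.58 and 11.16 on the other arrays. A list of genes that STAT5 represses had 6 measured members, of which Bcl6 was higher and Il7r lower. Bcl6, which directs the follicular helper fate, was at 7.56 and 8.90, with 7.31 in STAT5 wild-type cells. Il7r, the receptor for IL-7, stood at 12.26 in STAT3 wild-type, 11.16 in STAT5-deficient and 9.96 in STAT5 wild-type cells. STAT3-deficient cells, although also with anti-IL-2, stood at 11.11, close to STAT5-deficient cells. The Il7r difference of -1.10 came to -0.97 with arrays centred, short of 2-fold. Il6ra, Il6st, Cxcr5 and Ccr7 were within 2-fold.

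**Figure D2:**
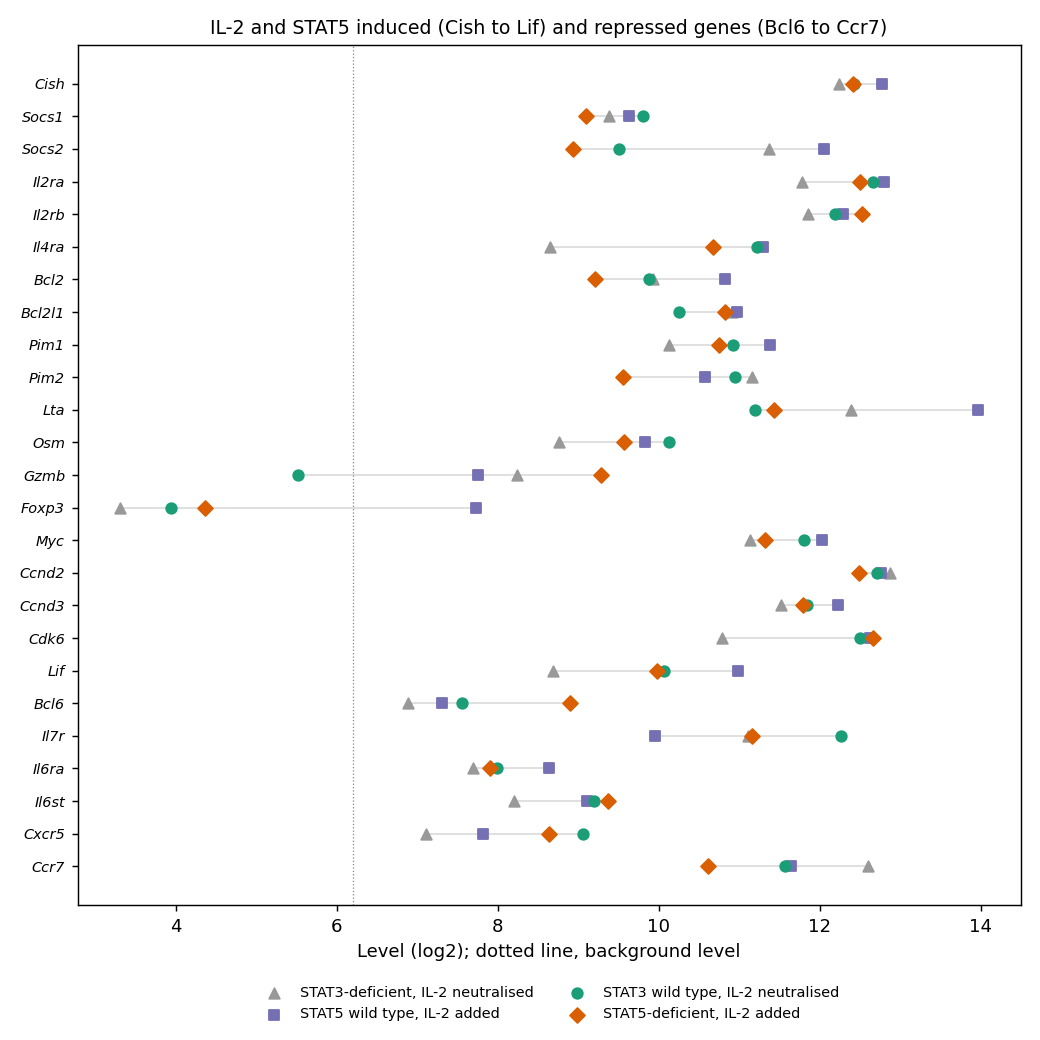
Levels (x axis, log2) of the 19 genes known to be induced and 6 known to be repressed by IL-2 and STAT5 on the 4 arrays, 1 point per array. Circles (STAT3 wild type, IL-2 neutralised) and diamonds (STAT5-deficient, IL-2 added) lie close for Cish, Lta and Lif and far apart for Gzmb.

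The parts of the IL-2 receptor pathway were mostly level, but the cytokine gene itself was not. Il2 stood at 6.66, 6.88 and 6.99 in STAT3 wild-type, STAT5 wild-type and STAT3-deficient cells and at 9.22 in STAT5-deficient cells, a difference of 2.56 (5.89-fold). Gab2, an adaptor that links the receptor to PI3K, was lower at 6.76 against 8.68, and the smallest of its 3 probe set differences was -0.42. STAT3-deficient cells stood lower still for Gab2, at 6.36, so a low level was not particular to STAT5-deficient cells. The other 11 measured genes of the pathway list, among them Il2rb (0.33), Jak1 (0.07) and Jak3 (-0.60), lay within 2-fold. No gene of the SOCS and CISH family passed 2-fold among 8 measured, with Socs3, the inhibitor induced by STAT3, farthest at -0.85 (12.02 and 11.17). Its difference was -1.15 after loess centring and -1.17 after quantile normalisation, past 2-fold.

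None of 12 measured Th17 genes passed 2-fold, a count near the 6.25% called among all genes, and the median was -0.12, or 0.01 with arrays centred and -0.43 after loess centring. Il17a, the cytokine gene of these cells, stood at 14.12 and 14.44, and Ahr, a ligand-activated factor, at 12.17 and 12.30. Il1r1, the IL-1 receptor, was 10.06 without IL-2 and 10.37 without STAT5, both above its 8.62 in STAT5 wild-type cells. Rora, a receptor that helps to set the Th17 fate, stood at 12.54 and 12.13, against 11.41 in STAT5 wild-type cells. Ccr6, a homing receptor, stood at 11.90 and 11.75, against 10.96, so STAT5 wild-type cells were lower than both cultures for all 3 genes. STAT3-deficient cells stood at 5.99 for Il1r1, 10.69 for Rora and 12.41 for Ccr6, lowest of the 4 arrays for the first and second only. Il21 depended on the probe set: the brighter one stood at 11.30 and 10.87 (-0.43), and the other differed by -2.35. Ccl20, the ligand of Ccr6, was the lowest of the list at -0.72, and passed 2-fold after loess centring (-1.02) and quantile normalisation (-1.03).

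Among genes of IL-6 and STAT3, 2 of 17 were lower and 0 higher (median -0.38), and both lower genes encode cytokines of the IL-10 family. Il24 stood at 8.61 without IL-2 and 6.63 without STAT5, with 11.55 in STAT5 wild-type and 5.30 in STAT3-deficient cells. Il10, an anti-inflammatory cytokine, stood at 9.39 and 8.26, with 10.39 in STAT5 wild-type cells, and its difference of -1.13 was -0.9993 with arrays centred. Il9 was higher, at 8.87 without IL-2, 10.61 without STAT5 and 13.88 in STAT5 wild-type cells. The difference of 1.75 is 3.36-fold, and STAT3-deficient cells, also with anti-IL-2, stood at 8.89.

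Beyond Foxp3, the regulatory T cell list had 2 genes higher in STAT5-deficient than in STAT3 wild-type cells. They were Ikzf2, which encodes Helios, and Ebi3, an IL-35 and IL-27 subunit. Ikzf2 stood at 7.06 and 8.91, and Ebi3 at 8.31 and 10.17. STAT5 wild-type cells were close to STAT5-deficient cells for both, at 9.11 and 9.59. STAT3-deficient cells, also with anti-IL-2, were the highest for both, at 10.80 and 10.29, so a low level was not shared by both cultures with anti-IL-2. Apart from Il10, the other 14 of 17 measured members lay within 2-fold, for example Ctla4 (0.28) and Izumo1r (-0.78), the folate receptor 4, whose level in STAT5 wild-type cells was 10.78 against 9.23 and 8.45.

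Genes of the amino acid and unfolded protein response made up the list with the most higher genes. Part of the list, such as Asns, Chac1 and Trib3, is induced by ATF4, a transcription factor made when amino acids run short or the endoplasmic reticulum is under load, and also downstream of mTOR. Other members, such as Hspa5, Sdf2l1 and Dnajb9, answer to the factors ATF6 and XBP1 of the unfolded protein response, and Atf4 itself is on the list. Of 17 measured genes of the amino acid and unfolded protein response, 13 were higher in STAT5-deficient cells with IL-2 and 0 lower, against 3.36% of all genes. The median was 1.46, and it ranged from 1.26 to 1.58 across the scalings run, with 10 members still higher after loess centring. Atf4 itself stood at 11.58 and 12.68 (1.09).

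Chac1, a glutathione-degrading enzyme induced by ATF4, stood at 6.55 in STAT3 wild-type and 9.22 in STAT5-deficient cells, a difference of 2.67 or 6.35-fold. STAT5 wild-type cells stood at 8.79 and STAT3-deficient cells at 7.33, so both STAT5-line arrays lay above both STAT3-line arrays. Asns, which makes asparagine, stood at 9.78 and 11.64, with 11.90 and 10.31 in STAT5 wild-type and STAT3-deficient cells. Phgdh, the first enzyme of serine synthesis, stood at 11.23 and 13.17, with 13.05 and 12.44. Herpud1, part of the degradation machinery of the endoplasmic reticulum, stood at 10.08 and 11.82, with 10.90 and 9.75. In all 4 genes both arrays with IL-2 were above both arrays with anti-IL-2, and the IL-2 treatment and the floxed line cannot be told apart here. STAT5-deficient and STAT5 wild-type cells were within 1.5-fold for Chac1, Asns and Phgdh, whereas Herpud1 stood midway in STAT5 wild-type cells. The median of the list was 1.30 for STAT5 wild type minus STAT3 wild type and 0.16 for STAT5-deficient minus STAT5 wild type, 2 comparisons that share an array. Members within 2-fold were Ddit3, a death-promoting factor (0.21), Xbp1 (0.45), Dnajb9 (0.16) and Atf3. Atf3, a stress-induced factor, was at 6.52 and 7.19, both well under its 9.38 in STAT5 wild-type cells.

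Stretches before the starts of Chac1, Asns and Herpud1, and of the glycyl-tRNA synthetase gene Gars described next, are shown because each holds the core of the ATF4 and C/EBP element, TGATGNAA, on one strand or the other. Capitals mark it (TTNCATCA where it runs on the opposite strand), and the sequences are again from RefSeq, GRCm38.p6, 5′ to 3′ on the gene's strand. Chac1 is at chr2:119351009-119351096 on the plus strand, with its match 193 bases before the start. Asns is at chr6:7693210-7693272 on the minus strand, 23 bases before. Herpud1 is at chr8:94386277-94386364 on the plus strand, 112 bases before, and Gars is at chr6:55037931-55038000 on the plus strand, 30 bases before.
Chac1: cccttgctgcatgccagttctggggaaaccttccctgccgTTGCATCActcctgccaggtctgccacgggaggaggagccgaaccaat
Asns: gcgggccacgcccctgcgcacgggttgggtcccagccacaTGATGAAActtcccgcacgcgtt
Herpud1: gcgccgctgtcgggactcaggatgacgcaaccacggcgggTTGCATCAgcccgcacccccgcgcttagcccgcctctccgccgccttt
Gars: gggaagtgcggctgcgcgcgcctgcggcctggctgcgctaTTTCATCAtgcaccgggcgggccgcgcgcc
The pattern was in the window of 5 of 17 genes of the amino acid and unfolded protein response list. The 5 holders were Chac1, Asns, Herpud1, Trib3 and Atf3, and Atf3 was within 2-fold. Of the 12 tRNA synthetase genes with a sequence, 5 held the pattern. Over all genes compared with a sequence the share was 2.66%, among genes called higher 5.33% and among genes called lower 2.83%. Both strands were searched, and overlaps between this pattern and TTCNNNGAA were not counted. The TGATGNAA pattern and the synthetase list were chosen after the values had been seen.

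Amino acid uptake genes were higher as well. Of 10 measured amino acid and iron uptake genes, 6 were higher and 0 lower (median 1.08), or 4 higher with probe sets averaged (median 0.55) and 4 after loess centring. The share higher among all genes was 3.36%. Slc7a5, the large neutral amino acid transporter, stood at 9.89 and 11.96 (4.19-fold), and its partner Slc3a2 at 10.70 and 11.79. Slc7a3, a cationic amino acid transporter outside the list, stood at 6.46 and 9.06. Tfrc, the transferrin receptor for iron, stood at 12.24 and 13.31. For each of these 4 genes the STAT5 wild-type array, at 12.21, 12.08, 8.98 and 13.41, was within 1.5-fold of the STAT5-deficient one. Slc1a5 (0.24) and Slc38a2 (0.31), both glutamine carriers, were level.

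Another 3 families were added to the lists after these values had been seen, and 2 of them share 5 members each with the amino acid and unfolded protein response list, so the counts are not separate. Of 16 measured genes of serine, one-carbon, cysteine, proline and transaminase metabolism, 10 were higher and 0 lower (median 1.20), 5 of them shared. Cth, which makes cysteine from cystathionine, was the farthest, at 6.43 and 9.80 (10.4-fold), with 9.25 in STAT5 wild-type and 8.30 in STAT3-deficient cells. Psph, the last enzyme of serine synthesis, stood at 9.41 and 11.36, and the branched-chain transaminase Bcat1 at 9.74 and 11.53. Of 19 measured cytosolic tRNA synthetases, 8 were higher and 18 lay above 0, Qars (-0.10) being the exception. Cars, for cysteine, led at 8.26 and 10.04, and Gars stood at 11.36 and 12.51. After loess centring only 1 synthetase passed 2-fold (median 0.59, against 0.82 as deposited).

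Chaperones of the endoplasmic reticulum gave 9 of 17 higher (median 1.07), 4 of these shared, and 3 after loess centring. Hspa5, which encodes the chaperone BiP, stood at 12.41 and 13.57, and Creld2 at 9.03 and 10.67. Hspa5 was at 13.22 and Creld2 at 10.04 in STAT5 wild-type cells, between the 2 cultures. The list median was 0.35 for that step and 0.68 for STAT5 wild type minus STAT3 wild type.

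**Figure D3:**
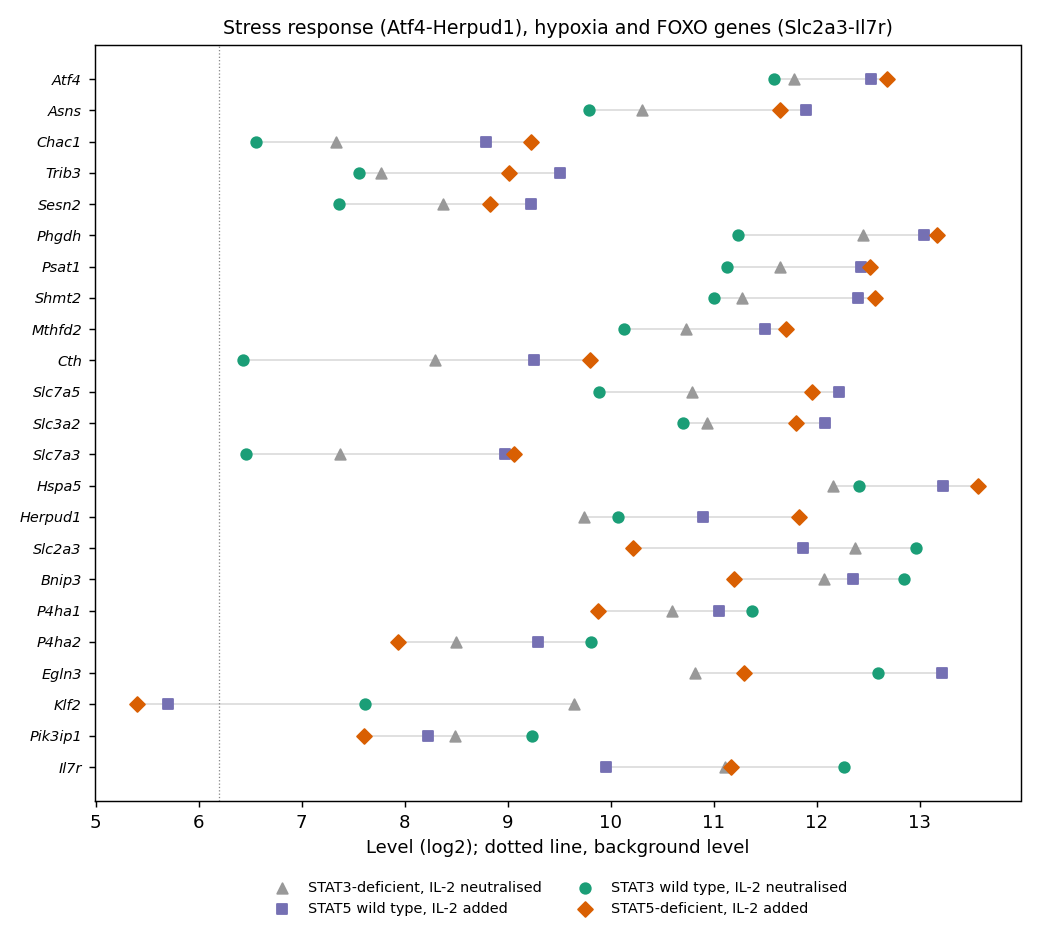
Levels (x axis, log2) of genes of the amino acid and stress response, hypoxia and FOXO groups on the 4 arrays, 1 point per array. From Atf4 to Herpud1 the STAT5-deficient diamond and the STAT5 wild-type square lie to the right of the STAT3 wild-type circle, whereas the diamond is left of the circle from Slc2a3 to Il7r.

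Genes induced by hypoxia were in part lower in STAT5-deficient cells. Of 15 measured members 6 were lower and 0 higher, against 2.89% lower among all genes, and the median was -0.74. The collagen prolyl hydroxylase gene P4ha1 stood at 11.38 in STAT3 wild-type and 9.87 in STAT5-deficient cells, and its relative P4ha2 at 9.81 and 7.93. Bnip3, a mitophagy receptor, stood at 12.85 and 11.19, and Egln3, an oxygen-sensing hydroxylase, at 12.60 and 11.30. For these 4 genes STAT5 wild-type cells were nearer to STAT3 wild-type cells, at 11.05, 9.29, 12.35 and 13.22, whereas for Chac1, Asns and Phgdh they were nearer to STAT5-deficient cells. STAT3-deficient cells stood at 10.60, 8.50, 12.07 and 10.82 for P4ha1, P4ha2, Bnip3 and Egln3, below both wild-type arrays. A lower level of these 4 genes was thus not particular to STAT5-deficient cells. Bhlhe40 was the only member above 0 as deposited, at 0.80.

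Glucose uptake showed 1 wide difference and otherwise little. Slc2a3, the glucose transporter GLUT3, stood at 12.97 without IL-2, 11.87 in STAT5 wild-type and 10.22 in STAT5-deficient cells, a difference of -2.75 (6.73-fold lower). All 4 of its probe sets were lower, by at least 2.15. Pfkfb3, a regulator of glycolytic flux, differed by -1.52, or by -0.91 with probe sets averaged. The other 13 of 15 measured glycolysis genes lay within 2-fold, with Pgk1 at 14.17 and 14.17. Aldoc, an aldolase outside the list named after its values were seen, stood at 11.63 and 9.13.

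Of 14 measured FOXO target genes, 6 were lower and 1 higher (median -0.88), with 4 lower when arrays were centred and 8 after loess centring. The share lower among all genes was 2.89%. Klf2, a quiescence and trafficking factor, stood at 7.61 in STAT3 wild-type cells and, under background, at 5.40 in STAT5-deficient cells, with 5.70 in STAT5 wild-type and 9.65 in STAT3-deficient cells, so that both arrays with IL-2 were low and both with anti-IL-2 high. Pik3ip1, an inhibitor of PI3K, stood at 9.23 and 7.60, and Trp53inp1 at 12.12 and 10.78. Il7r, Sesn3 (-1.004) and Ccng2 (-1.18) completed the lower genes. Bcl6 was the higher one, and S1pr1, a receptor for tissue exit, was level at 8.76 and 8.95. Bcl2l11, the death gene Bim that FOXO factors also induce, stood at 9.22 and 7.38, but its 5 probe sets differed by between -1.84 and -0.35.

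Early targets of MAP kinase and T cell receptor signalling were mixed, with the widest differences upward. The MAP kinase list counted 7 higher and 2 lower among 18 measured (median 0.27), against 3.36% and 2.89% among all genes. Fos, a subunit of the AP-1 factor, stood at 7.69 and 10.36 (6.37-fold), with 8.63 in STAT5 wild-type cells. Etv5, an ERK-induced ETS factor, stood at 4.89 and 6.66, with 7.42 in STAT5 wild-type cells, and its lower side is under background. Dusp6, a phosphatase that restrains ERK, was level on the other arrays (9.82, 9.75 and 9.76) and higher without STAT5 (11.06). Ier3 (-1.45) and the ERK inhibitor gene Spred2 (-1.03) were lower, and the early response genes Egr1 (-0.37) and Egr3 (-0.26) were within 1.5-fold. The T cell receptor list, which shares Fos and others with it, counted 5 higher and 0 lower among 18 (median 0.44), and Nr4a2, an orphan nuclear receptor, stood at 8.51 and 10.81. The 6 probe sets of Nr4a2 differed by between 0.05 and 2.60. The NF-κB list counted 2 higher and 0 lower among 14, with Rel, a subunit of the factor, at 1.49 and its inhibitor Nfkbie at 1.15, the latter at 0.89 with probe sets averaged.

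Genes of other helper fates were in part higher in STAT5-deficient cells. The Th1 list had 5 of 13 measured genes higher and 1 lower (median 0.72), against 3.36% and 2.89% among all genes. Tbx21, which encodes T-bet, stood at 5.25, under background, in STAT3 wild-type cells and at 7.87 in STAT5-deficient cells, with 6.13 in STAT5 wild-type and 8.94 in STAT3-deficient cells. Il18r1, an IL-18 receptor chain, stood at 7.38 and 8.90, while Il12rb2, the IL-12 receptor chain, was the lower gene at 8.17 and 6.97. Ifng lay under background in both, at 3.84 and 4.56. The cytokine gene of Th1 cells thus stayed low on both arrays. Gata3, the Th2 regulator, stood at 6.69 and 8.05. As for Tbx21, STAT3-deficient cells stood higher still for Il18r1 (10.92) and Gata3 (9.91). The follicular helper list counted 5 higher and 0 lower among 16 (median 0.50), including Pdcd1, which encodes PD-1 (9.89 and 11.31), and Cd200 (9.47 and 11.02). STAT3-deficient cells stood at 11.17 for Pdcd1 and 10.71 for Cd200. Tox2 in that list stood at 1.16, or 0.87 after loess centring and 0.52 with probe sets averaged.

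Cytotoxic genes numbered 11, with 3 higher and 2 lower (median 0.22), against 3.36% and 2.89% among all genes. With Gzmb, the higher ones were Nkg7, a granule protein (5.86 and 8.11), and Klrk1 (4.05 and 5.84), which lay under background on both arrays. STAT3-deficient cells stood higher still for Nkg7 (11.98) and Klrk1 (6.84), but not for Gzmb. Klrd1, a killer lectin receptor, stood lower at 9.30 and 7.81, as did Ctsw, a protease (12.75 and 11.42). Of the NK cell markers, the defining receptor gene Ncr1 was at 5.59 and 4.36, under background on both arrays. The summed level of all 4 was 21.9 and 21.9, although without a filter 1 of them was higher and 1 lower. Opposite differences cancel in such a sum, so it cannot tell whether NK cells differed. Among inflammatory caspases, Casp1 stood at 5.64 and 8.51 and Casp4 at 7.52 and 9.87. STAT5 wild-type cells stood close to STAT3 wild-type cells for Casp1 (5.39) and between for Casp4 (8.68). The summed level of the 7 macrophage and monocyte markers was 39.8 in STAT3 wild-type and 39.1 in STAT5-deficient cells, with 2 of them above background on each. This sum cannot tell whether such cells differed either, and that was not tested.

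Interferon-induced genes had 3 of 21 lower and 0 higher, against 2.89% lower and 3.36% higher among all genes. Gbp2 and Gbp3, guanylate-binding proteins, stood at 12.65 and 10.76 and at 8.22 and 7.13, with 9.85 and 5.64 in STAT5 wild-type cells. Gbp3 came to -0.96 with arrays centred, short of 2-fold. The third, Xaf1, had 1 probe set at -2.63 and another at 2.04, so its direction is not settled. Only Gbp2 was free of these limits, so the count does not set the list apart from other genes. TGF-β genes were level apart from Tgfb3 (8.14 and 6.03) and Id3 (7.16 and 8.50). Among chemokine receptors only Ccr2 (6.81 and 5.29) was called, of 10 measured. Tnfsf11, which encodes RANKL, stood at 6.88 and 8.71, and Tnfrsf9, the costimulatory receptor 4-1BB, at 11.26 and 9.86. STAT3-deficient cells stood at 10.87 and 12.28 for these, above both arrays.

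Growth genes leaned upward by less than 2-fold. Of 25 measured cell cycle genes 6 were higher and all lay above 0 as deposited (median 0.70), with Cdc20, an activator of mitotic exit, at 1.30 and Ccne1, cyclin E, at 1.27. After loess centring 1 passed 2-fold and 23 lay above 0 (median 0.43). Ribosome biogenesis genes had a median of 0.61 (0.32 after loess centring), and 2 of 16, Rrp12 (1.07) and Nop58 (1.05), were higher as deposited and 0 after it. Respiratory chain genes had a median of 0.41, or 0.10 after loess centring, with 0 of 18 called. Cholesterol and fatty acid genes had a median of 0.49 (0.25), and Scd1, a desaturase, was the 1 called at 1.01, or 0.72 after that centring. The G1 regulators had 0 of 9 called, with Cdkn1b farthest at -0.72, and the apoptosis list had Bcl2l11 alone.

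**Figure D4:**
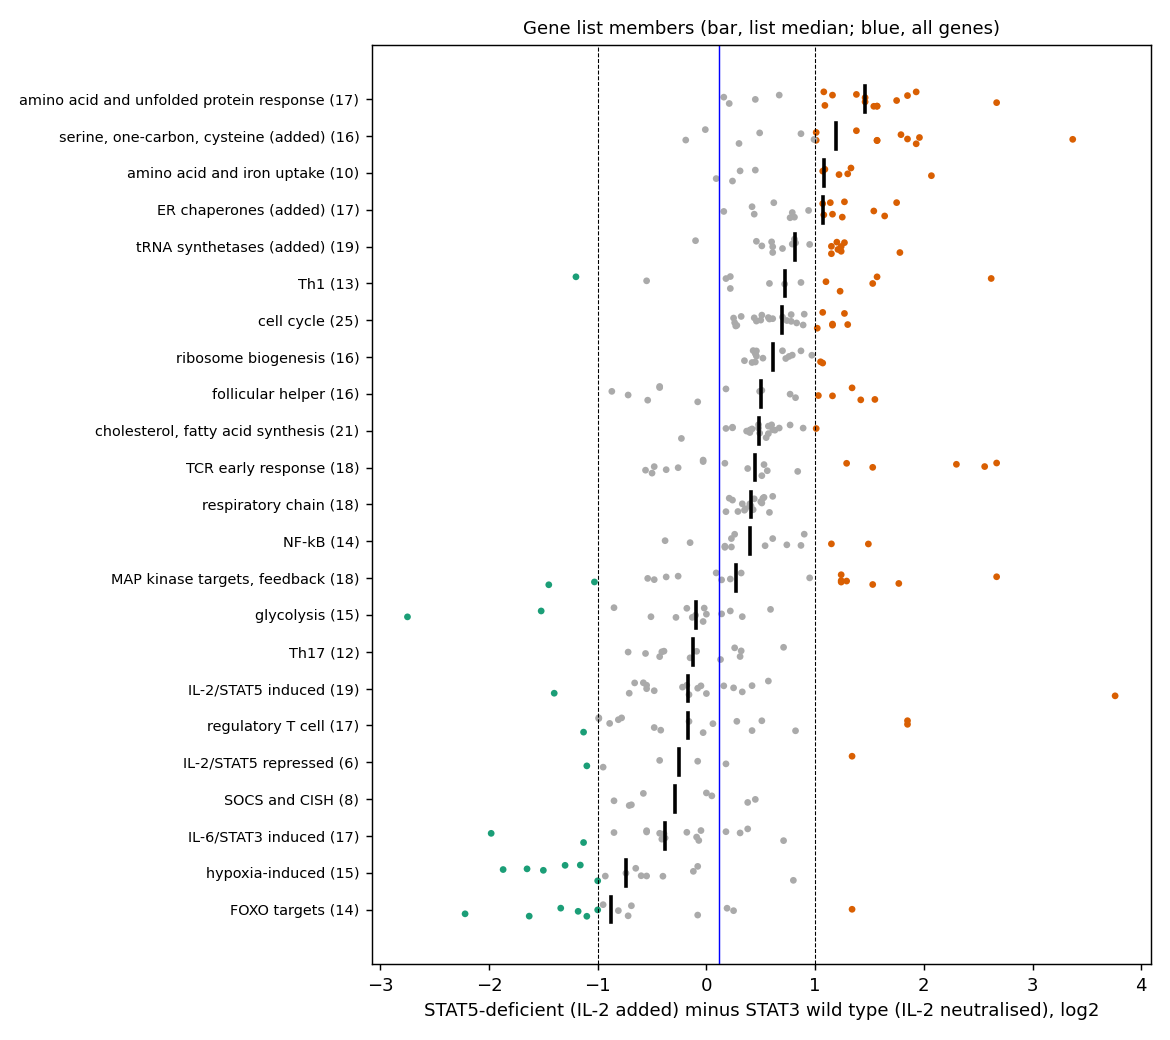
Difference of each measured member of 23 gene lists, STAT5-deficient with IL-2 minus STAT3 wild type with IL-2 neutralised (x axis, log2); the number of members is in parentheses, dashed lines mark 2-fold and the blue line the median of all genes (0.11). The amino acid and unfolded protein response list has the highest median (1.46) and the FOXO list the lowest (-0.88).

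Among all genes, those with under 1.5-fold between the 2 cultures that stood farthest from STAT5 wild-type cells were picked out by that distance, with no test. Below STAT5 wild-type cells, beside Foxp3, Lta and Socs2, were C1s1, a complement protease (4.15 and 4.26, against 7.44), and F3, tissue factor (3.54 and 3.26, against 6.57). Batf3, a transcription factor of the AP-1 family, stood at 8.52 and 8.38, against 11.08, and Ncf1, a subunit of the phagocyte oxidase, at 5.70 and 5.50, against 8.03. C1s1, F3 and Ncf1, like Foxp3, lay under the background level in both cultures and passed the filter only through other arrays. For these genes the likeness of the 2 cultures is one of values under background. Enah, an actin regulator, stood at 6.63 and 6.05, against 9.29, with probe sets that differed by between -0.58 and 0.78. Above STAT5 wild-type cells were Bcar3, an adaptor (7.85 and 7.98, against 4.74), and Gpr183, the oxysterol receptor that guides T cell positioning (9.96 and 10.17, against 8.16). Pcbp3, an RNA-binding protein (11.79 and 12.16, against 10.06), Lum, a matrix proteoglycan (8.06 and 8.34, against 6.13), and Cdh17, a cadherin (8.54 and 8.53, against 6.79), followed. Samd9l, Gbp6 and Gm2629 completed that set, the first at 6.93 and 7.19, against 5.17. Gm2629 was under background in both cultures, at 5.86 and 5.84.

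Genes in which STAT5-deficient cells differed from both wild-type arrays, with those arrays within 1.5-fold of each other, included Dhrs3, a retinal reductase (4.36, 4.55 and 7.38 in STAT3 wild-type, STAT5 wild-type and STAT5-deficient cells). Vegfc, a lymphatic growth factor, stood at 5.06, 4.60 and 8.02, and all 3 of its probe sets past the filter were higher. Dclk1, a kinase, stood at 6.77, 6.74 and 9.33, with all 7 probe sets higher, and Casp1, Il2 and the unnamed gene 5430435K18Rik (2.52) made up the rest. STAT3-deficient cells were also above both wild-type arrays for Dhrs3 (6.55), Dclk1 (8.30) and Casp1 (7.42), but not for Vegfc (3.72) or 5430435K18Rik (3.57). On the lower side, after Stat5b and Stat5a, came Gprasp2, which sorts receptors (8.11, 7.58 and 4.89), and Pygl, glycogen phosphorylase (7.82, 7.50 and 5.06). Selenbp1, a selenium-binding protein (7.17, 6.63 and 4.61), and Gm17767 (-3.06) followed. STAT3-deficient cells shared the low level for Gprasp2 (5.23) and Gm17767 (5.11) but not for Selenbp1 (7.48). For Pygl they stood between STAT5-deficient cells and the wild-type arrays, at 6.55.

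Genes with both STAT5-line arrays alike and STAT3 wild-type cells apart included, on the higher side, Zfp979, a zinc finger gene. It stood at 2.90 and 2.99 on the STAT3-line arrays and at 6.98 and 6.88 on the STAT5-line arrays. Trav9d-3, a T cell receptor segment, split the same way (12.43 and 12.41 against 14.96 and 15.02), although its other probe sets did not follow it and reached -0.66. Cd83, an activation marker, stood at 6.60 in STAT3 wild-type cells and 9.16, 9.62 and 11.28 in STAT5 wild-type, STAT5-deficient and STAT3-deficient cells. Cth, Chac1 and Slc7a3 completed the upward set. Downward, Gdpd3, a lysophospholipase, stood at 9.99 and 9.79 on the STAT3-line arrays and 6.67 and 6.65 on the STAT5-line arrays. Atp6v0e2, a proton pump subunit, stood at 8.89 and 7.59 against 5.29 and 5.14. Prss12, a serine protease, stood at 10.39 in STAT3 wild-type cells and at 7.87, 7.19 and 7.15 elsewhere. Rin2 (-3.05) stood at 7.26 in STAT3 wild-type cells and under background on the other arrays, with STAT3-deficient cells at 4.67. Madcam1 (-2.69) stood at 7.63 and 7.17 on the STAT3-line arrays and, under background, at 5.39 and 4.94 on the STAT5-line arrays. A630026N12Rik (-2.85) stood at 7.37 and 6.45 on the STAT3-line arrays and, under background, at 4.93 and 4.52 on the STAT5-line arrays.

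**Figure D5:**
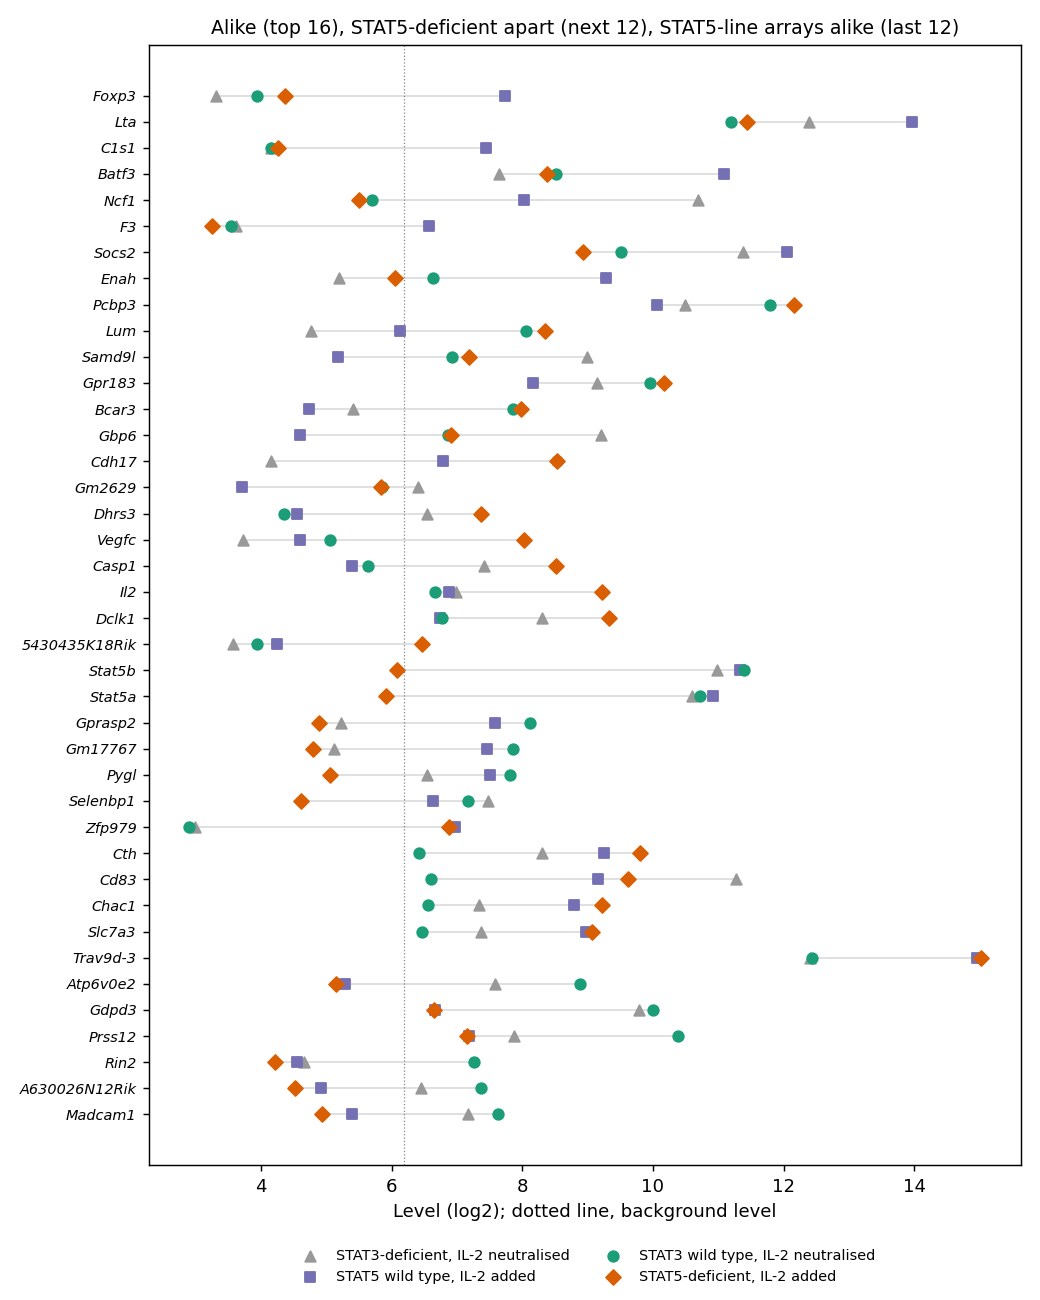
Levels (x axis, log2) on the 4 arrays of 40 genes picked by the position of the STAT5 wild-type square, 1 point per array. In the top 16 rows the circle (STAT3 wild type, IL-2 neutralised) and the diamond (STAT5-deficient, IL-2 added) lie within 1.5-fold; in the next 12 the diamond stands apart from both wild-type arrays, and in the last 12 the circle stands apart from both STAT5-line arrays.

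The largest differences whose probe sets all ran the same way also held genes outside these patterns. Cd5l, a secreted scavenger protein, stood at 7.95, 9.15 and 11.30 in STAT3 wild-type, STAT5 wild-type and STAT5-deficient cells. Penk, the enkephalin precursor, stood at 7.65, 8.59 and 10.29, and Dsp, a desmosomal protein, at 7.69, 8.97 and 10.32. In each of these 3 genes STAT5 wild-type cells lay between. STAT3-deficient cells stood at 8.31 for Cd5l, 11.92 for Penk and 9.62 for Dsp, above STAT5-deficient cells for Penk only. On the lower side, Acvrl1, a receptor of the TGF-β family, stood at 8.77, 7.45 and 4.80, the widest decrease after Stat5b and Stat5a. Ecm1, a matrix protein, stood at 10.69, 9.12 and 7.91, and Itga7, an integrin, at 9.51, 8.04 and 6.49. STAT3-deficient cells were also below both wild-type arrays for Acvrl1 (6.22), Ecm1 (7.91) and Itga7 (7.38). Erdr1, next in size after Acvrl1 at -3.83, had a second probe set at -0.39. It stood at -0.39 when probe sets that can match several transcripts were left out.

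Stat3, Stat5a and Stat5b lie side by side in the genome, so neighbours of the locus were read as well. Of 21 measured neighbours 2 were higher, Tubg1 (1.06) and Dnajc7 (1.02), and 2 lower, Cnp (-1.32) and Cavin1 (-1.69). After loess centring Tubg1 stood at 0.81 and Dnajc7 at 0.73, short of 2-fold, and Cavin1 stood at -0.70 with probe sets averaged.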

How the data were processed

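Labelled RNA of 4 cultures was measured on Affymetrix mouse arrays, 1 each. The authors used Affymetrix Power Tools, per the submitters' processing notes, whose version, algorithm and build the sources used here do not give. The authors' deposited values are read as log2 because they run from 2.48 to 15.09; another base would change every fold. They were used as deposited in Python (pandas 2.3.3), and gene names came from the platform annotation. Entrez identifiers matched RefSeq (GRCm38.p6) for 99.1%, with no symbol changed. Where several probe sets of a called gene passed the filter, all ran the same way for 273 of 312 genes (87.5%), and the median SD between probe sets was 0.22.

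No statistical test was run, with 1 array a group. Lists are given by counts at 2-fold and medians beside those of all genes. Members and lists were chosen with earlier results of these data known. Genes named were 20 key genes where measured, the 15 largest increases and decreases with agreeing probe sets, up to 4 members a list past 2-fold (else the farthest), and genes ranked by where the STAT5 wild-type array stood (6 or 8 each way). Other list members were named for their role after their values were seen. List results not described in the text are in the closing section. Alternatives were probe set averaging, leaving out _s_at and _x_at probe sets, other filters, 3 scalings (loess span 0.4 with statsmodels 0.14.6) and thresholds of 1.5-fold and 3-fold. The script that makes the calls was tested on simulated data with known differences.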

Additional observations from a re-analysis of the deposited data

How the results depend on the processing

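Higher and lower counts were 418 and 359 as deposited. With arrays centred on their medians they were 661 and 259, without a filter 495 and 557, under a filter at the 75 percentile level they came to 306 and 168, at 1.5-fold 1846 and 1114, and at 3-fold 85 and 101. Quantile normalisation gave 318 and 397, loess centring 304 and 410, probe set averaging 298 and 281, leaving out _s_at and _x_at probe sets 400 and 362, and filtering on the 2 arrays compared 409 and 352. Of 102 named genes called as deposited, none changed direction under these settings where it was measured. Calls fell short of 2-fold for 10 of them after loess centring, 10 after quantile normalisation, 5 with array centring and 12 with probe sets averaged. The cause of these changes was not tested. No paired analysis was possible because each group has 1 sample. No detection calls were used, so differences with a side under 6.20 are uncertain in size.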

Other observations

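Naive and central memory genes had 1 higher and 2 lower of 10 measured (median -0.32), and integrin genes 0 higher and 1 lower of 12, Itgb3, at -1.03 or -0.47 with probe sets averaged. Heat shock genes had 0 higher and 1 lower of 10, Hspa1b, at -1.02 or -0.74 with probe sets averaged. The chemokine genes Ccl3 (6.19 in STAT3 wild-type and 7.76 in STAT5-deficient cells) and Ccl4 (8.22 and 9.45) were the 2 higher of 10 chemokines measured, with 0 lower. STAT3-deficient cells stood higher still, at 9.69 for Ccl3 and 10.66 for Ccl4. Of 16 costimulatory and coinhibitory receptor genes 3 were higher and 1 lower. The Th2 and Th9 list had 2 higher and 1 lower of 11 (median -0.03), and the other common gamma chain cytokines and receptors 1 and 1 of 6. In the inflammatory caspase list 3 of 7 were higher, the third being Mndal, whose probe sets differed by 1.19 and 0.16. The STAT family beyond Stat5a and Stat5b had 4 members within 2-fold, with Stat4 at 0.58 and Stat6 at 0.44. Beside all these counts, 3.36% of all genes compared were higher and 2.89% lower.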
